A study of Mus musculus with 9 samples.

Results

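A stretch of mouse chromosome 2 in which H3R2me2a peaks were sparse in cells without Prmt6 was described here from its peaks, its borders and its genes. The segment was chr2:53500001-120000000 in the mm10 build, 66.5 Mb long, and every peak of the 6 deposited lists that starts in it was taken as a member. There were 24093 such peaks among 1548240 in all lists. By library, the members were 5018 and 4455 peaks in wild type (WT), 10588 and 4011 in Prmt6KO and, from much shorter lists, 6 and 15 in Igf2bp2KO, for replicates 1 and 2 in this order. The peaks of the 20.0 Mb on either side, 13248 in the left flank and 12376 in the right flank, served as the reference. The segment was chosen by its low peak density in the Prmt6KO libraries, so every Prmt6KO value in it, alone or against WT, is given as a description with no test.

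The study profiled the histone mark by chromatin immunoprecipitation and sequencing in cells of mouse bone marrow that the design text names leukemia cells. The 3 groups were WT cells, cells without Prmt6 (Prmt6KO, written Prmt6-/- in the design text) and cells without Igf2bp2 (Igf2bp2KO, likewise Igf2bp2-/-), with 2 H3R2me2a libraries each. All cells were grown in IMDM with serum and the cytokines IL3, IL6 and SCF, fixed with formaldehyde, and sonicated, and the antibody came from EPIGENTEK. The labels give no strain, age or origin of the leukemia, and do not say whether replicates 1 and 2 are different mice or cultures, so each SD is the spread between libraries and may be technical. Peak lists carry no RNA levels, so neither the cell type nor the loss of Prmt6 was checked here.

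The mark is asymmetric dimethylation of arginine 2 on the tail of histone H3. PRMT6 is the main enzyme known to place it, and it is known to be depleted where lysine 4 of the same tail carries trimethylation, as at active promoters. IGF2BP2 is a reader of m6A-modified RNA and is not known as a histone enzyme. The segment holds Spi1, the gene of PU.1, a transcription factor that myeloid and B cells need to develop. As background, loss of a copy of a stretch of chromosome 2 that includes Spi1 is a recurrent change in myeloid leukemias of irradiated mice. It also holds the Hoxd cluster, the largest array of olfactory receptor (Olfr) genes in the mouse, and 634 protein-coding genes in all, 259 of them Olfr genes.

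Peaks count fragments that were pulled down, so a smaller amount of DNA from the segment and a lower level of the mark on that DNA cannot be told apart in these lists. The 3 input libraries, which would carry the amount of DNA, were not analysed here.

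Promoter sequences are shown first, because they show what kind of sequence lay under the few replicated promoter peaks of the segment. They are the 250 bases upstream of the gene start from the RefSeq promoter table of GRCm38.p6, the mm10 build, written 5′ to 3′ on the strand of the gene. All of them are intergenic bases upstream of the first exon. In capitals are the bases that lie inside the peaks of both libraries of a genotype. Olfr1284 (chr2:111378752-111379001, plus strand) was the only promoter of the segment with a peak in both WT libraries. Pjvk (chr2:76650023-76650272, plus strand) and Olfr1248 (chr2:89618246-89618495, minus strand) are 2 of the 7 with a peak in both Prmt6KO libraries. Promoters with a peak in both libraries were not counted outside the segment, so nothing is read from these numbers. The promoter of Rprm (chr2:54085553-54085802, minus strand) had no peak in any library and is shown for contrast. The gene itself held a peak of 3 fragments in Prmt6KO replicate 1, at 54084556 to 54085009.
Olfr1284: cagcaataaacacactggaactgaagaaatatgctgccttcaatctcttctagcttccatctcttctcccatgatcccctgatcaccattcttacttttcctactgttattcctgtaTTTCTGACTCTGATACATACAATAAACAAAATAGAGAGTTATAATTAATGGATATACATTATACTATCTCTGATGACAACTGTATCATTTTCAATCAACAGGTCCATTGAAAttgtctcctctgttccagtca
Pjvk: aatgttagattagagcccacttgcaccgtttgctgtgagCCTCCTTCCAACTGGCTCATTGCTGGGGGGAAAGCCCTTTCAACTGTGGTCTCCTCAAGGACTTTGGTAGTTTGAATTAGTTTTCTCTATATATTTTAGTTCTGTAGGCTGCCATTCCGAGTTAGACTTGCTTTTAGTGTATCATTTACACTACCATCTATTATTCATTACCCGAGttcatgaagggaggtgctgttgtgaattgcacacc
Olfr1248: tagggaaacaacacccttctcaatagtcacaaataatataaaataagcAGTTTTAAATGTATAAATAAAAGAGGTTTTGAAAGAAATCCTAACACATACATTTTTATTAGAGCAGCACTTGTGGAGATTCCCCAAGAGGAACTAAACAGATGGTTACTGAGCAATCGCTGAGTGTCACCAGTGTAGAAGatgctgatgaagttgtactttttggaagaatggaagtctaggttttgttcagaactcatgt
Rprm: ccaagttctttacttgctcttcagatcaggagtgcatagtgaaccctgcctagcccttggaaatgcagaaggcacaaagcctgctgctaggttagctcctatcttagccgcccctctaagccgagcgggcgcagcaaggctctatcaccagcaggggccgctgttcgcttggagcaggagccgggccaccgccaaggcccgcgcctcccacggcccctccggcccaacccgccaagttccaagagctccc
These 4 were picked after their values were seen.

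Olfr1284 encodes an olfactory receptor. Its peaks in WT had 6 fragments at the summit in each library and fold enrichments of 2.84 and 2.87, which are the authors' values relative to the background of each list. In Prmt6KO replicate 1 the same window had a peak of 2 fragments, and in replicate 2 it had none. Prmt6KO replicate 2 instead had a peak of 7 fragments inside the gene, at 111379327 to 111379673, with a fold enrichment of 3.62. Of the 250 bases shown for Olfr1284, 112 were inside both WT peaks, 35.6% were G or C, and no CG dinucleotide was present. Pjvk encodes pejvakin, a protein of hair cells needed for hearing. Its peaks had 2 and 5 fragments in Prmt6KO, with fold enrichments of 1.73 and 2.72, and shared 176 of the bases shown. WT replicate 2 had a peak of 5 fragments just upstream of these bases, ending at 76650010. Olfr1248, another olfactory receptor gene, had 3 fragments in each Prmt6KO library, with fold enrichments of 2.30 and 1.81 and 141 shared bases. The Rprm sequence, upstream of the gene of reprimo, a p53 target that stops the cell cycle, was richer in G and C at 62.4% and held 13 CG dinucleotides. Pjvk had 43.2% and 3 CG dinucleotides, and Olfr1248 had 35.2% and 1. Rprm is not typical of segment promoters without a peak, whose median was 47.0% to 47.3% in the 4 WT and Prmt6KO lists.

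Promoters with a peak were poorer in G and C than those without in each of the 4 WT and Prmt6KO lists. Over the 909 promoters of the table inside the segment, each of 300 bases, the median G and C content was 36.8% and 33.5% with a peak in WT against 47.3% and 47.0% without. In Prmt6KO the medians were 42.8% and 40.3% with a peak against 47.0% and 47.3% without. Peaks lay on 26 and 16 promoters in WT and on 44 and 29 in Prmt6KO. As shares, these were 2.86% and 1.76% in WT, beside 0.940% in the flanks for both libraries and 1.91% and 1.15% over all promoters. In Prmt6KO they were 4.84% and 3.19% in the segment, beside 13.7% and 4.32% in the flanks and 14% and 4.95% over all promoters. The table held a promoter for 541 of the 634 protein-coding genes of the segment, and Spi1, Lmo2, Wt1 and Itga6 were not matched.

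The lists differed in length, which sets how peak numbers can be read. WT lists held 165304 and 134492 peaks, Prmt6KO lists 814517 and 431638, and Igf2bp2KO lists 1028 and 1261. The background in fragments ranged from 0.736 to 1.46, and the lowest summit that entered a list from 2 to 8 fragments. Prmt6KO replicate 1 had the lowest of both. Numbers of peaks were therefore compared within a list, segment against flanks, as peak starts per Mb. The 2 WT libraries stood apart on chromosome X, with 2026 peaks in replicate 1 and 10335 in replicate 2, so WT is given by library throughout.

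In WT the segment was about as dense as its flanks. Replicate 1 had 75.5 peaks per Mb in the segment and 73.3 per Mb in the flanks, and replicate 2 had 67.0 and 63.8. In Prmt6KO replicate 1 the segment had 159 peaks per Mb against 322 in the flanks, and in replicate 2 it had 60.3 against 181. The density of the segment was thus 103% and 105% of that of the flanks in WT and 49.4% and 33.3% in Prmt6KO. On the log2 scale, the mean ratio was 0.06 ± 0.02 (SD, n = 2) in WT and -1.30 ± 0.40 (SD, n = 2) in Prmt6KO, which differ by -1.36. The Prmt6KO libraries differed from each other by more than the WT libraries did, and both lay below both WT libraries.

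The low density was relative to the flanks of the same list. Prmt6KO replicate 1 listed more peaks per Mb in the segment than either WT library, and replicate 2 listed fewer. The list of Prmt6KO replicate 1 took in summits of 2 and 3 fragments, while WT lists began at 4. At 4 fragments or more, Prmt6KO replicate 1 had 31.2 per Mb in the segment, against 75.5 and 67.0 in WT. In the flanks it had 84.65, against 73.3 and 63.8 in WT. The backgrounds of the lists differed too. In Prmt6KO the segment was also less dense than each flank alone. In Prmt6KO replicate 1 the left flank had 313 and the right flank 332 peaks per Mb, and in replicate 2 they had 195 and 167. In WT the left flank was denser than the right, with 80.4 against 66.3 per Mb in replicate 1 and 73.8 against 53.8 in replicate 2. Bases covered by peaks gave ratios of segment to flanks of 1.04 and 1.05 in WT and 0.453 and 0.312 in Prmt6KO. Peaks were also narrower in the segment in Prmt6KO, with a mean width of 258 bp against 281 bp in replicate 1 and 254 bp against 272 bp in replicate 2. In WT the mean widths were 264 bp against 261 bp and 268 bp against 267 bp.

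The low density held along the entire segment. Cut into 66 bins of 1 Mb, the segment had 120 to 224 peaks per bin in Prmt6KO replicate 1, with a median of 159.5, while the 40 flank bins had 264 to 378, with a median of 323. In Prmt6KO replicate 2 the segment bins had 17 to 91, with a median of 64, and the flank bins 110 to 255, with a median of 169. In neither Prmt6KO library did a segment bin reach the lowest flank bin. In WT, 65 and 64 of the 66 segment bins did, with medians of 76 in the segment and 70 in the flanks in replicate 1 and 68.5 and 58.5 in replicate 2.

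**Figure D1:**
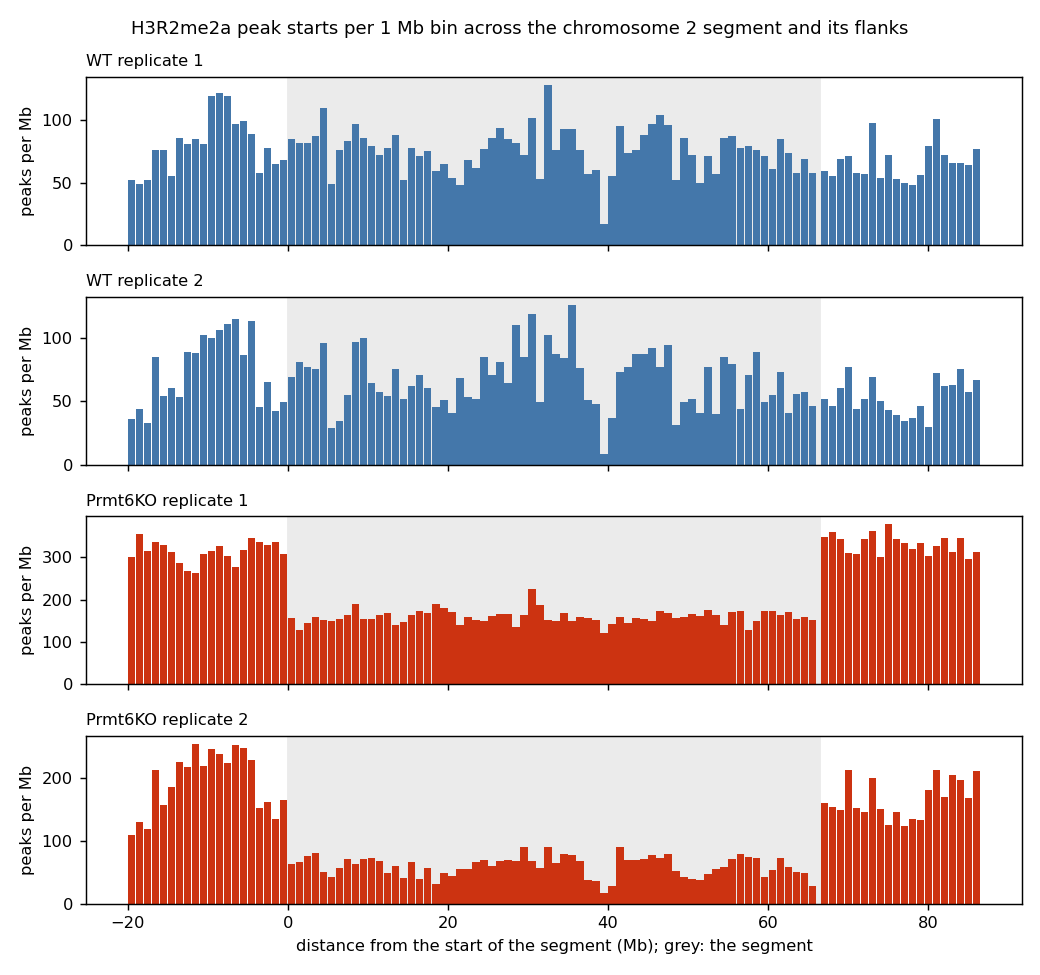
Peak starts per 1 Mb bin (y axis) along the segment (grey) and its flanks, by distance from the start of the segment in Mb (x axis), with 1 panel per WT and Prmt6KO library and its own y scale. In both Prmt6KO panels all segment bins, at most 224 and 91 peaks, stay below all flank bins, at least 264 and 110, and in both WT panels the 2 ranges overlap.

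The plot of peaks per bin shows a flat floor in Prmt6KO replicate 1 and a profile with hills and dips in the other 3 libraries. The bin that starts at 92500001 had the fewest peaks of the segment in each of the 4 libraries, 17 and 8 in WT and 120 and 17 in Prmt6KO. Over the 66 bins, Pearson's r was 0.76 between the WT libraries, 0.70 and 0.66 between Prmt6KO replicate 2 and the WT libraries, and 0.03 between the 2 Prmt6KO libraries. Prmt6KO replicate 1 had r of 0.19 and 0.07 with the WT libraries. These are descriptions over neighbouring bins that share gene content and base composition, and Prmt6KO replicate 1 is the list that took in the lowest summits.

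Across the genome, the segment held most bins of this kind. A bin was called sparse where it lay under 0.75 of the autosomal median in both Prmt6KO libraries and in neither WT library, a limit set after the data were seen. The bins here began at whole Mb and so were offset from the segment bins above. Of 2394 autosomal bins, 62 were sparse (2.59%), and each of the 62 was one of the 66 that lay within the segment. Without the condition on WT, 78 bins were sparse (3.26%), 68 of them on chromosome 2 and 66 in the segment. The remaining 10 outside chromosome 2 were 5 on chromosome 4, 2 on chromosome 10 and 1 each on chromosomes 8, 14 and 19. Nothing is read from these shares, since the rule used the same lists.

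Both borders were sharp in Prmt6KO. Each was placed in each library at the step in density with the highest Poisson likelihood over 10 kb bins, within 3 Mb of the stated edge, and its range holds all positions within 2 log-likelihood units. The left border lay at 53470000 in replicate 1, with a range of 53430000 to 53480000. In replicate 2 it lay at 53510000, with a range of 53460000 to 53530000. The 2 positions were 40 kb apart and their ranges overlapped. Across the step, density fell from 328 to 143 peaks per Mb in replicate 1 and from 155 to 67.9 in replicate 2.

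The right border lay at 120010000 in Prmt6KO replicate 1, with a range of 119950000 to 120050000. In replicate 2 it lay at 120090000, with a range of 119980000 to 120110000. These were 80 kb apart, again with overlapping ranges. Density rose there from 156 to 352 peaks per Mb in replicate 1 and from 45.0 to 158 in replicate 2. With both libraries fitted together, the borders were 53460000 and 119970000, which makes the segment 66.51 Mb long. The ranges of this joint fit were 53460000 to 53480000 and 119970000 to 120070000. Its right border lay below the positions of both libraries and just outside the range of replicate 2. The ranges cover counting error only.

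**Figure D2:**
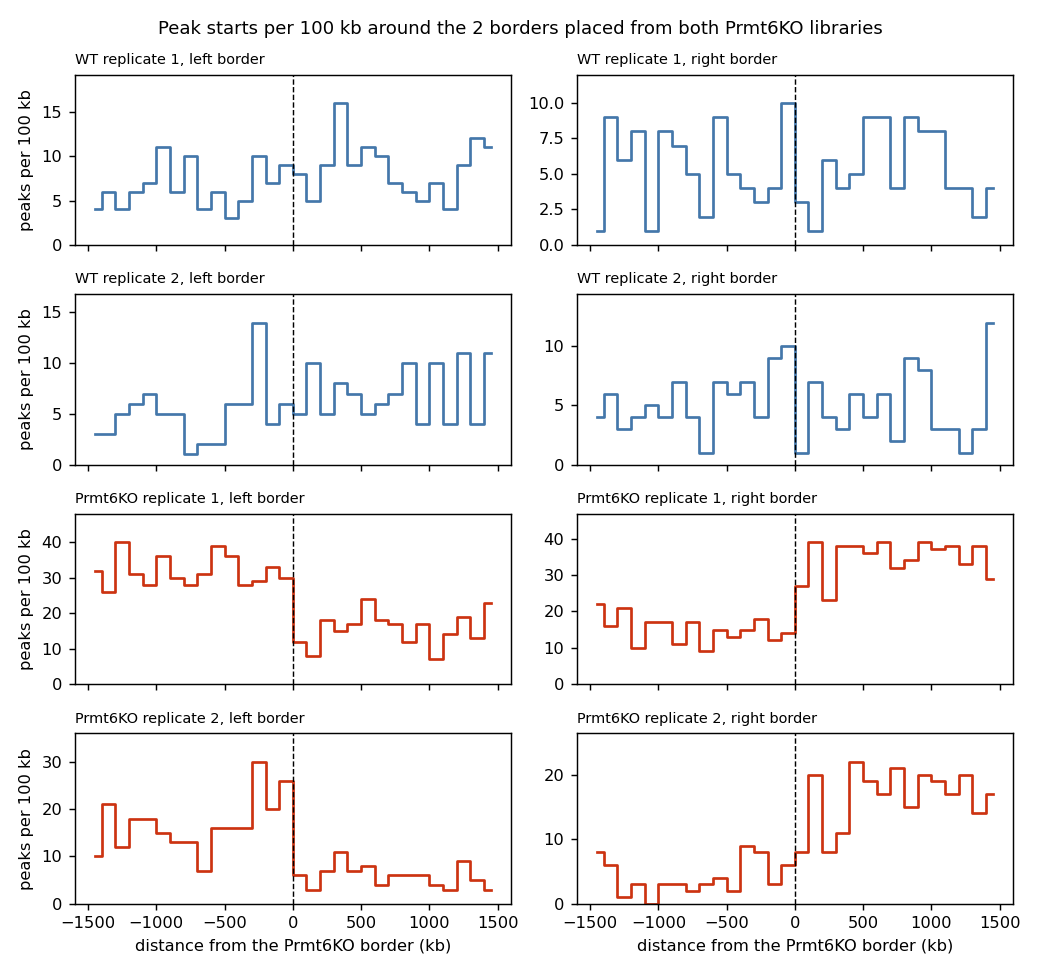
Peak starts per 100 kb (y axis) by distance in kb from the left and right borders placed from both Prmt6KO libraries (x axis, dashed line at the border), in 1 panel per library and border, each with its own y scale. In the Prmt6KO panels the level changes at the line, from 320 to 158 and from 172 to 64 peaks over the 1 Mb outside and inside the left border, and the WT panels show no such drop on the inner side.

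The members just inside and just outside the borders fitted on both libraries together show the same step. In the 1 Mb outside and inside the left border, Prmt6KO replicate 1 had 320 and 158 peaks and replicate 2 had 172 and 64. At the right border these were 345 and 141, and 161 and 43. WT had 71 and 86 peaks, and 51 and 67, outside and inside at the left border. At the right border WT had 58 and 57, and 50 and 59. The step was already present over 100 kb at the left border, with 30 against 12 peaks in Prmt6KO replicate 1 and 26 against 6 in replicate 2. At the right border, 100 kb gave 27 against 14 peaks in replicate 1 and 8 against 6 in replicate 2, so replicate 2 placed its step further out.

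The same search in WT gave steps that were weaker or ran the other way. The density after the step over that before it was 0.435 and 0.439 on the left and 2.25 and 3.52 on the right in Prmt6KO. In WT it was 0.713 and 1.63 on the left and 1.70 and 0.675 on the right. The gain in log-likelihood over a flat density was 112 and 52.2 at the left border and 116 and 101 at the right border in Prmt6KO. In WT the gain was 2.37 and 10.5 on the left and 3.56 and 4.16 on the right. Gains grow with the number of peaks, so those of the longer Prmt6KO lists and of WT do not compare directly. The edges searched came from the Prmt6KO lists, so the Prmt6KO gains are a description only. The WT step with a gain of 10.5 lay at 53130000 in replicate 2 and was a rise into the segment, from 47.1 to 76.9 peaks per Mb. Igf2bp2KO had too few peaks for a step to be placed.

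The left border fell in a gap between genes. The nearest protein-coding gene before it was Arl6ip6, which encodes a membrane protein and ends at 53219221. It lay 251 kb before the border of replicate 1 and 291 kb before that of replicate 2. The nearest after it was the predicted gene Gm38481, which starts at 53694340, 224 kb and 184 kb after these borders. No protein-coding gene contained the left border in either library.

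The right border fell among closely spaced genes. In Prmt6KO replicate 1 it lay inside Mapkbp1 (119972390 to 120027403), which encodes a JNK-binding scaffold protein, between Mga and Jmjd7. In replicate 2 it lay inside Ehd4 (120089487 to 120154575), which encodes an endocytic ATPase, with Sptbn5 1.09 kb before and Pla2g4e after. The border fitted on both libraries together, placed only to 10 kb, fell by the end of Mga (119872503 to 119970129), the gene of a MAX-binding transcription factor. The ranges of the borders do not tell which of these genes holds the edge.

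The deficit in Prmt6KO grew with the height of the peaks. Among peaks of exactly 2, 3 and 4 fragments at the summit in Prmt6KO replicate 1, the density of the segment was 0.576, 0.524 and 0.392 of that of the flanks. At 5, 6 and 7 fragments it was 0.321, 0.251 and 0.114, the last from 7 peaks against 37. In replicate 2 the ratio was 0.370, 0.348 and 0.344 at 3, 4 and 5 fragments and 0.240, 0.236 and 0.201 at 6, 7 and 8. At 9 fragments replicate 2 had 3 peaks in the segment against 13 in the flanks, a ratio of 0.139. Replicate 1 had the same numbers at 8 fragments, and higher summits were too few in the flanks to compare.

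WT showed no such slope. In WT replicate 1 the ratio lay between 1.01 and 1.08 from 4 to 8 fragments and reached 1.29 at 9. In WT replicate 2 it lay between 0.873 and 1.12 from 4 to 9 fragments. The most common height in Prmt6KO replicate 1 was 3 fragments, with 90.1 peaks per Mb in the segment and 172 in the flanks. In Prmt6KO replicate 2 it was 4 fragments, with 25.8 and 74.1 per Mb.

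**Figure D3:**
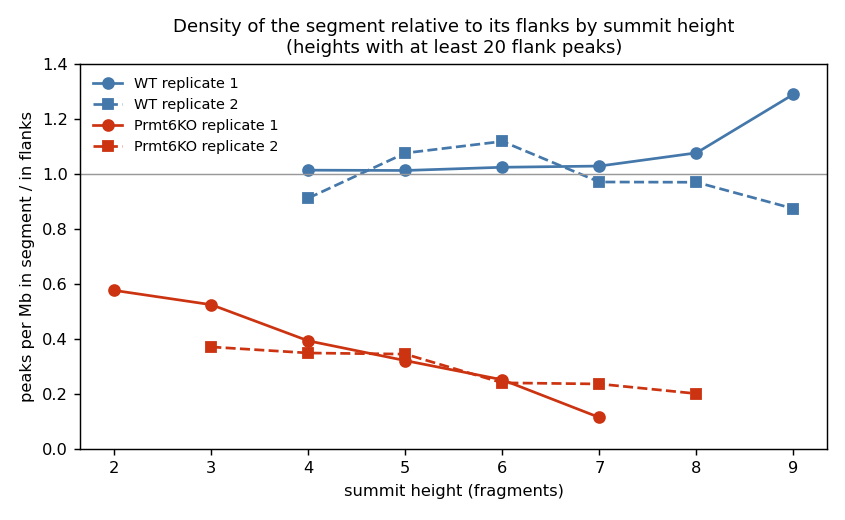
Density of the segment divided by that of the flanks (y axis) for peaks of exactly the given height in fragments at the summit (x axis), for heights with at least 20 flank peaks, as 1 line per WT and Prmt6KO library. The Prmt6KO lines run down from 0.576 to 0.114 and from 0.370 to 0.201, and the WT lines stay between 0.873 and 1.29.

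Peaks with a q-value of 0.05 or below, as the authors' caller gave it, were few. The segment held 17 and 29 of them in Prmt6KO and the flanks 52 and 74, although the flanks are the shorter stretch. In WT the segment held 132 and 57 and the flanks 58 and 37. In Igf2bp2KO 4 such peaks lay in the segment in each library and 0 in the flanks.

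The highest peaks of the segment were 4 neighbouring regions, and these were present in all 6 libraries. They lie between 98661983 and 98667526, over 1000 kb from the nearest protein-coding gene, Lrrc4c, which encodes a synaptic adhesion protein. Their sequence and mappability were not read here, so whether reads from repeated sequence gather there, rather than the mark, was not tested. At the highest of the 4, the summit had 398 and 390 fragments in WT and 388 and 397 in Prmt6KO, while Igf2bp2KO had 394 and 394. These values lay within 388 to 398 in all 6 libraries, although their lists and backgrounds differed widely, so the summit of this region does not tell libraries apart. At the first region WT had 330 and 322 fragments, Prmt6KO 225 and 330, and Igf2bp2KO 285 and 326. At the second they were 117 and 98, 57 and 120, and 109 and 89. At the third they were 225 and 235, 169 and 218, and 206 and 243. Prmt6KO replicate 1 was the lowest library in the first 3 regions, and it had the lowest background.

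Outside these 4 regions, no summit in the segment passed 17 and 11 fragments in WT, 12 and 10 in Prmt6KO, or the 14 and 19 of Igf2bp2KO. Without the 4 regions the mean log2 ratio of segment to flanks in Prmt6KO was again -1.30.

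Beyond these regions, the peaks seen in both libraries of a genotype were low, and some of the highest lay close together in WT and Prmt6KO. In WT, 275 replicate 1 peaks overlapped the replicate 2 list. Ranked by the lower of the 2 fold enrichments, 6 of them tied at 3.69 after the 4 high regions. The one at 95293003 to 95294413 had 17 and 8 fragments, and that at 97730435 to 97730848 had 10 and 8. Those near Rbms1 (61090575 to 61090809, 127 kb away), in Slc4a10 (62195937 to 62196405), near Olfr1116 (87274947 to 87275571) and at 98638841 to 98639043 had 9 and 8 each. Rbms1 encodes an RNA-binding protein and Slc4a10 a bicarbonate transporter of neurons.

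In Prmt6KO, 497 replicate 1 peaks overlapped the replicate 2 list. The highest lay at 95291657 to 95292079, 853 kb from Api5, with 7 and 10 fragments, and it was 0.924 kb from the WT peak at 95293003. The Prmt6KO peak at 97731369 to 97732543, with 5 and 8 fragments, was 0.521 kb from the WT peak at 97730435. That at 98636177 to 98636619, also with 5 and 8 fragments, was 2.22 kb from the WT peak at 98638841. These sites were singled out after their values were seen.

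Of the 8 highest replicated peaks of Prmt6KO after the 4 high regions, 3 lay inside genes, in Dpp4, Ola1 and Mettl15. Dpp4 encodes a cell-surface peptidase, and its peak (62400990 to 62401495) had 5 and 8 fragments and fold enrichments of 3.46 and 4.07. The peak in Ola1, the gene of an Obg-like ATPase, had 5 and 7 fragments and fold enrichments of 3.46 and 3.62. The peak in Mettl15, the gene of a mitochondrial rRNA methyltransferase, had the same values. In Igf2bp2KO the 4 high regions were the only ones shared by both libraries.

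Replication between libraries was low in the segment. Of the WT replicate 1 peaks, 5.48% overlapped a peak of replicate 2 in the segment and 5.12% in the flanks. Of the Prmt6KO replicate 1 peaks, 4.69% overlapped one of replicate 2 in the segment and 11.4% in the flanks. As a share of Prmt6KO replicate 2, these were 12.4% and 20.2%. Overlap depends on density, so the Prmt6KO shares are no independent measure. Of the 275 WT peaks that both WT libraries held, 44 (16.0%) met a peak of Prmt6KO replicate 1, 33 (12%) one of replicate 2, 14 both and 212 neither. In the flanks, 29 of 150 (19.3%) met a peak of replicate 1, 19 (12.7%) one of replicate 2, 5 both and 107 neither.

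The ratios were similar inside genes and between them. In WT, the ratio of segment to flanks was 0.989 and 0.992 inside protein-coding genes and 1.05 and 1.09 outside. In Prmt6KO it was 0.481 and 0.311 inside genes and 0.505 and 0.344 outside. Genes covered 39.9% of the segment, and 37.8% and 37.8% of WT summits and 39.8% and 35.3% of Prmt6KO summits lay in them.

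Gene ends were compared over all 21631 protein-coding genes of the RefSeq table. A gene was counted where a peak overlapped 1 kb on either side of one of its ends in both libraries of a genotype. In WT 33 of the 634 segment genes counted (5.21%), beside 17 of 315 flank genes (5.40%) and 3.56% of all genes. In Prmt6KO 48 segment genes counted (7.57%), beside 102 flank genes (32.4%) and 29% of all genes. In Igf2bp2KO 0 segment genes and 1 flank gene counted, beside 0.208% of all genes. Nothing is read from the Prmt6KO count, since the rule used the same peaks.

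By library, 21.6% and 21.8% of segment genes had a gene-end peak in WT and 39.4% and 18.9% in Prmt6KO. In the flanks these were 21.6% and 16.2% in WT and 73.3% and 41.9% in Prmt6KO. Prmt6KO replicate 2 thus had a smaller share of segment genes than either WT library and a larger share of flank genes than either.

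**Figure D4:**
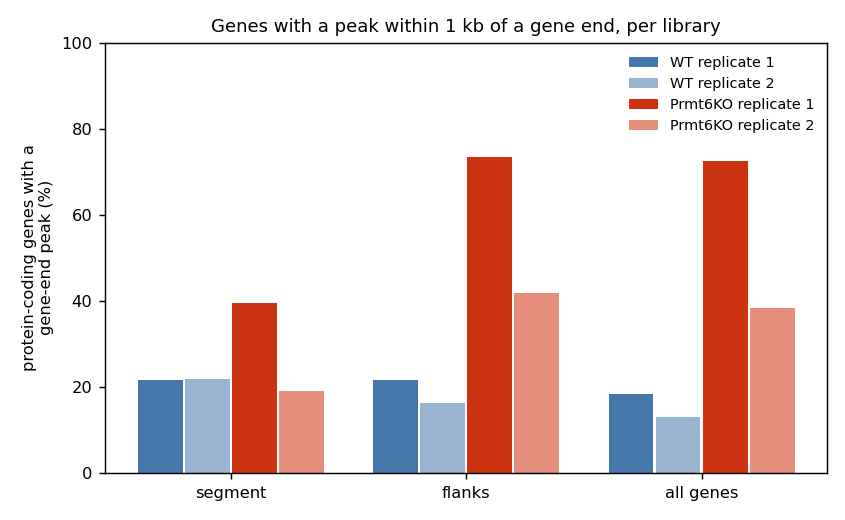
Share of protein-coding genes with a peak within 1 kb of a gene end (y axis, percent) in the segment, the flanks and all genes (x axis), as 1 bar per WT and Prmt6KO library. The Prmt6KO bars fall from 73.3% and 41.9% in the flanks to 39.4% and 18.9% in the segment, and the WT bars are 21.6% and 16.2% in the flanks and 21.6% and 21.8% in the segment.

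Spi1 (chr2:91082374-91115759) had peaks in all 4 WT and Prmt6KO libraries and none in Igf2bp2KO. Nothing is read from that absence, since in each Igf2bp2KO library only 1 of the 634 segment genes held a peak. WT replicate 1 had 3 peaks in Spi1, each with 6 fragments and a fold enrichment of 2.84. WT replicate 2 had 1, at 91085560 to 91085759, with 7 fragments and a fold enrichment of 3.28, and it overlapped the first of replicate 1 (91085548 to 91085962). Prmt6KO replicate 1 had 5 peaks of 2 to 5 fragments. The highest of these, at 91090124 to 91090436 with a fold enrichment of 3.46, overlapped the peak that WT replicate 1 had at 91090080. Prmt6KO replicate 2 had 1 peak of 4 fragments, at 91085261 to 91085460, which overlapped none of the others. No peak in Spi1 had a q-value of 0.05 or below in any library.

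The neighbourhood of Spi1 was low in Prmt6KO like the rest of the segment. Within 100 kb on either side, WT had 13 and 7 peaks, Prmt6KO 30 and 7, and both Igf2bp2KO libraries 0. Within 1 Mb on either side, the density was 55.1 and 51.6 per Mb in WT, which is 0.751 and 0.810 of the flanks. In Prmt6KO it was 153 and 46.7 per Mb, or 0.476 and 0.258 of the flanks. Relative to the entire segment, this stretch stood at 0.730 and 0.771 in WT and 0.964 and 0.775 in Prmt6KO.

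**Figure D5:**
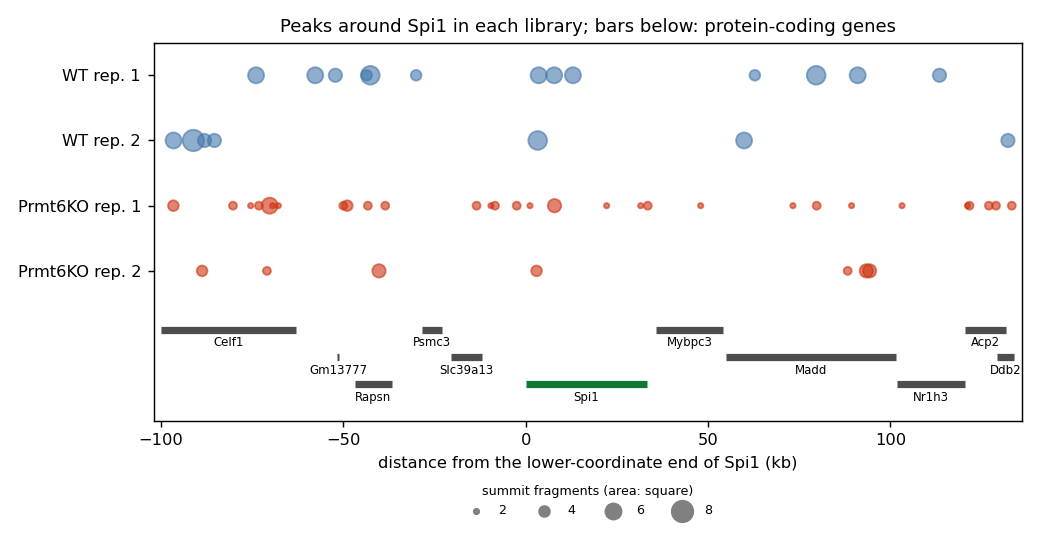
Peaks around Spi1 by distance of the summit from the lower-coordinate end of the gene in kb (x axis), with 1 row per WT and Prmt6KO library, the size of a point showing the fragments at the summit, and bars below for the protein-coding genes. Prmt6KO replicate 1 has the most points, 30, mostly small, and the other rows have 13, 7 and 7.

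Spi1 and the 10 genes beside it had fewer peaks per Mb than all segment genes in each WT and Prmt6KO library. They include Celf1, the gene of an RNA-binding protein, Psmc3, of a proteasome subunit, Madd, of a Rab exchange factor, and Nr1h3, of the oxysterol receptor LXR alpha. Spi1 and these neighbours, 11 genes, had 62.8 and 44.4 peaks per Mb in WT and 140 and 40.7 in Prmt6KO. All 634 segment genes had 70.9 and 63.7 in WT and 157 and 53.0 in Prmt6KO. The lists differ in length, so these densities are read within a library only. At least 1 peak lay in 6 and 5 of the 11 genes in WT and in 10 and 5 in Prmt6KO. Of all 634 segment genes, 345 and 331 held a peak in WT and 428 and 304 in Prmt6KO. In no genotype did any of the 11 have gene-end peaks in replicate 1 and replicate 2 alike. Only 5.21% of segment genes did in WT and 7.57% in Prmt6KO, so nothing is read from their absence in 11 genes.

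Blood and leukemia genes had densities close to those of all segment genes. The list held 20 genes and had 60.6 and 66.4 peaks per Mb in WT and 172 and 47.9 in Prmt6KO, where all 634 genes had 70.9 and 63.7 in WT and 157 and 53.0 in Prmt6KO. Lmo2, the gene of a bridging factor of blood stem cells, had 2 and 1 peaks in WT and 5 and 2 in Prmt6KO. Nfe2l2, the gene of the oxidative stress regulator NRF2, had 4 and 0 in WT and 2 and 2 in Prmt6KO. Itga4, of the homing integrin alpha 4, had 8 and 6 in WT and 21 and 5 in Prmt6KO. Itga6, of integrin alpha 6, was the 1 gene of the list with a gene-end peak in both Prmt6KO libraries, with fold enrichments of 2.30 and 2.72. These peaks lay at the same end of Itga6 but did not overlap.

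The Hoxd cluster was the poorest of these lists in peaks. Its 10 genes, which pattern limbs and the body axis and are close to silent in most blood cells, had 2 and 3 peaks in WT and 8 and 1 in Prmt6KO. Per Mb these were 22.2 and 33.3 in WT and 88.7 and 11.1 in Prmt6KO, the lowest of the lists in each of the 4 libraries. Hoxd3 had 1 and 1 in WT and 3 and 0 in Prmt6KO. Hoxd11 was the 1 gene with a gene-end peak in both Prmt6KO libraries, with 2 and 4 fragments. Evx2 was the 1 gene with such a peak in both WT libraries, with 5 and 7 fragments. In neither gene did the peaks of the libraries overlap. With 1 Mb on either side of the cluster, the density was 0.788 and 0.855 of the flanks in WT and 0.464 and 0.279 in Prmt6KO.

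Genes of chromosome segregation and repair had 78.5 and 71.7 peaks per Mb in WT and 171 and 58.0 in Prmt6KO over 7 genes. Bub1b, the gene of a spindle checkpoint kinase, had 3 and 3 peaks in WT and 5 and 1 in Prmt6KO. Knl1, of a kinetochore scaffold, had 6 and 4 in WT and 8 and 4 in Prmt6KO. Gene-end peaks in both WT or both Prmt6KO libraries were found in none of the 7. Nothing is read from this, beside 5.21% of segment genes in WT and 7.57% in Prmt6KO.

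Chromatin genes had 106 and 81.0 peaks per Mb in WT and 160 and 69.0 in Prmt6KO over 8 genes. Hat1, the gene of a histone acetyltransferase, had 5 and 5 peaks in WT and 7 and 8 in Prmt6KO. Atf2, of a stress-activated transcription factor, had 8 and 17 in WT and 14 and 2 in Prmt6KO, and it was the 1 gene with a gene-end peak in both WT libraries, where these overlapped. Baz2b, of a bromodomain protein, had 36 and 17 in WT and 51 and 26 in Prmt6KO.

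Neuronal and muscle genes, which blood cells hardly use, had 71.7 and 56.9 peaks per Mb in WT and 157 and 69.1 in Prmt6KO over 13 genes. Scn1a, the gene of a sodium channel of neurons, had 16 and 10 peaks in WT and 24 and 10 in Prmt6KO. Scn3a, of another such channel, had a gene-end peak in each of the 4 libraries, with 6 and 5 fragments in WT and 2 and 4 in Prmt6KO. In WT and in Prmt6KO alike, the peaks of replicates 1 and 2 lay at opposite ends of Scn3a. Neurod1, of a neuronal transcription factor, had overlapping gene-end peaks in WT with fold enrichments of 2.84 and 2.87 and none in Prmt6KO. Gcg, the glucagon gene, had gene-end peaks in both Prmt6KO libraries, with 2 and 5 fragments at opposite ends of the gene, and none in WT. Over these 6 lists, Igf2bp2KO had no peak. In each Igf2bp2KO library only 1 of the 634 segment genes held a peak, so nothing is read from this.

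The Olfr genes were denser in peaks than all segment genes together in both WT libraries and in Prmt6KO replicate 2. In Prmt6KO replicate 1 they were less dense. Over 259 genes they had 88.6 and 95.8 peaks per Mb in WT and 137 and 80.3 in Prmt6KO. All segment genes had 70.9 and 63.7 in WT and 157 and 53.0 in Prmt6KO. Counted by gene end, 20 of them (7.72%) had a peak in both WT libraries and 27 (10.4%) in both Prmt6KO libraries. Of the other 375 genes, 13 (3.47%) did in WT and 21 (5.60%) in Prmt6KO. In the cluster at 85 to 91 Mb, the density was 1.19 and 1.42 times that of the flanks in WT and 0.497 and 0.399 in Prmt6KO. Some Olfr genes are recent duplicates that can share reads, which was not checked here for single members.

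The segment genes were ranked by the lower of the 2 fold enrichments of their gene-end peaks. In WT, 12 genes stood at or above the tenth value, 5 of them tied at 2.84, and 8 of the 12 were Olfr genes. Olfr genes made up 20 of the 33 segment genes with such peaks in both WT libraries (60.6%) and 40.9% of all segment genes. Olfr1054 led with 8 and 7 fragments and had no peak in Prmt6KO. Ermn, the gene of a myelin cytoskeleton protein, had 9 and 6 fragments in WT and no gene-end peak in Prmt6KO. Med19, of a subunit of the Mediator complex, had 6 and 6 in WT and none at its ends in Prmt6KO. Olfr1130, Mettl15, Neurod1 and Olfr1295 also had no gene-end peak in Prmt6KO. Others of the 12 had one. In Prmt6KO replicate 2, Olfr1087, Olfr1183 and Olfr1202 had 4, 5 and 5 fragments. Olfr1313 had 2 in replicate 1, and Olfr1284 had 2 and 7. Only 39.4% and 18.9% of segment genes had a gene-end peak in Prmt6KO, so nothing is read from the absences. The peaks of the WT libraries overlapped in 4 of the 12, which were Mettl15, Neurod1, Olfr1284 and Olfr1295.

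In Prmt6KO, 17 genes stood at or above the tenth value, 16 of them tied at 2.30, and 10 of the 17 were Olfr genes. Among all 48 segment genes with such peaks in both Prmt6KO libraries, 27 (56.3%) were Olfr genes. The other 7 of the 17 were Cybrd1, Itga6, Api5, Prr5l, Cstf3, Tcp11l1 and Ndufaf1. Olfr1230 led with 4 and 5 fragments and overlapping peaks. Cybrd1, the gene of an iron reductase, had 3 and 5 fragments at opposite ends of the gene. The peaks of the 2 libraries overlapped in 7 of the 17, among them Cstf3, of a subunit of the mRNA cleavage complex, and Ndufaf1, of an assembly factor of respiratory complex I.

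The first and last 10 Mb of the segment were as low as the rest. The first 10 Mb had 0.482 and 0.355 of the density of the flanks in Prmt6KO and the last 10 Mb had 0.495 and 0.323. In WT these were 1.14 and 1.12, and 0.948 and 0.931. Of these and the 3 stretches around the Olfr cluster, Hoxd and Spi1, that within 1 Mb of Spi1 was the lowest in Prmt6KO replicate 2 and in both WT libraries, and that around Hoxd in Prmt6KO replicate 1.

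Igf2bp2KO was the 1 contrast with WT that the choice of the segment did not use, and it had very few peaks. The segment held 6 and 15 peaks and the flanks 1 and 3. The mean log2 ratio of segment to flanks was 1.72 ± 0.19 (SD, n = 2) in Igf2bp2KO against 0.06 ± 0.02 in WT, a difference of 1.66. The two-sided exact permutation test gave p = 0.33, the smallest that 2 libraries against 2 allow. Without the 4 high regions the difference was 0.65, and with all other autosomes in place of the flanks it was -1.93, both again with an exact permutation p of 0.33. The WT libraries are the same as in the Prmt6KO values above. No direction can be given for Igf2bp2KO from these lists.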

How the data were processed

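H3R2me2a ChIP-seq peak lists of 6 libraries, 2 each of WT, Prmt6KO and Igf2bp2KO, were analysed, and groups were taken from the sample titles. Per the submitters' processing notes, bcl2fastq 2.17, Trim Galore, HISAT2, MACS2 2.1.0 and bedtools were used with the build mm10. Their settings and whether an input entered the peak calls are not given in the sources used here. Each deposited list holds the peaks of 1 library. Per the file headers, each peak has a summit pileup, a coverage signal. It also has a fold enrichment, which is a ratio to the background of the list by the authors, and the deposited −log10 of its p-value and q-value. Pileups of the Igf2bp2KO lists were turned back into fragments by dividing by their smallest step. Read totals are unknown here, so depth was read from the background of each list in fragments.

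Peaks were assigned by their start, with the segment and flanks as stated, and overlap meant at least 1 bp. Density ratios were compared on the log2 scale. The border search was also run on simulated positions, drawn at a flat density on each side of the fitted border, as the search assumes. Such data lack the uneven density of the real lists, so they do not vouch for the ranges given. Gene positions came from the RefSeq table of GRCm38.p6. Python 3.11.15, numpy 2.4.6, pandas 2.3.3 and matplotlib 3.10.9 were used. The genes named were those of lists on Spi1 and its neighbours, blood, Hoxd, segregation, chromatin, and neuronal and muscle genes. Up to 4 members with a Prmt6KO peak were described per list, together with the genes at the borders and the 10 genes with the highest replicated gene-end peaks, with ties added after the values were seen. Members whose gene ends had peaks in replicates 1 and 2 alike were named after their values were seen. The segment, the lists and the tests were chosen with earlier results of these data known. Alternatives were the reference stretch, peak thresholds, list length, covered bases, summit positions, left-out stretches, bin and window sizes, the replicate block and leaving out each library.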

Additional observations from a re-analysis of the deposited data

How the results depend on the processing

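The log2 density ratio of the segment in Prmt6KO, -1.30, and its difference from WT, -1.36, stayed below 0 under every alternative run. Stricter peak thresholds made both larger. With a fold enrichment of at least 3 they were -1.90 and -1.92, with at least 4 they were -2.08 and -2.25, with a q-value of 0.05 or below -2.22 and -2.39, and with summits of at least 6 times the background -1.91 and -2.08. The other alternatives moved them by less than the spread between libraries. Leaving out each library gave -1.58 to -1.02 for the ratio and -1.64 to -1.07 for the difference. The mean left border of 53.49 Mb moved to 53.455 Mb and the mean right border of 120.05 Mb to 120.165 Mb with a fold enrichment of at least 3, and leaving out each library gave 53.47 to 53.51 Mb and 120.01 to 120.09 Mb. The count of 48 segment genes with a gene-end peak in both Prmt6KO libraries became 153 with a window of 2.5 kb, 260 over the entire gene body, and 0 both with a fold enrichment of at least 3 and with a q-value of 0.05 or below. A single library gave 120 to 250 genes. The Igf2bp2KO difference of 1.66 reversed to -1.93 with all other autosomes as reference, and leaving out each library gave 1.53 to 1.80. It could not be computed with the left flank alone, with the 2 fold enrichment thresholds or with the q-value limit, since flank peaks were at 0. The alternative without the 4 high regions was chosen after seeing the data.

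With a replicate block, the mean within-number difference was -1.36 for Prmt6KO and 1.66 for Igf2bp2KO, for which the exact permutation p was 0.5. The labels do not say that a number marks shared mice. Over 177 bins of chromosome 2, the deviations of replicate 1 from the group means had r of 0.48 between WT and Prmt6KO, with only 2 pairs to judge from. The number of libraries and the low summits, mostly under 10 fragments, limit every value given, and summits of 2 to 4 fragments near the entry level of a list cannot be told from background singly.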
